A study of Mus musculus with 18 samples.

Results

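The enteroendocrine hormone genes are 9 transcripts that mark the hormone-secreting cells of the gut lining: Chga, Chgb, Gcg, Pyy, Insl5, Tph1, Sct, Sst and Nts. They were taken from a named list and found by NCBI mouse gene identifier among the 18349 genes of the table. All 9 passed the filter of at least 1 FPKM (fragment counts divided by transcript length and library size) in at least 3 of 18 libraries, which 13263 genes passed. Nts passed through 4 libraries alone, COM 1, COM 2, KO 2 and Control 3, so its values had to differ between libraries.

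Enteroendocrine cells are scattered single cells of the intestinal epithelium that sense the lumen and release peptides or serotonin from dense-core granules. The hormone a cell makes depends on its place along the gut: L cells of the distal bowel make proglucagon peptides, peptide YY and, in the colon, insulin-like peptide 5, whereas neurotensin and secretin are chiefly small intestinal products. Enterochromaffin cells make serotonin, D cells make somatostatin, and the chromogranins are granule proteins shared by most of them.

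RNA of the rinsed, snap-frozen entire colon of male C57BL/6 mice was sequenced in 5 groups, and the labels give every mouse the genotype WT. Mice of 4 groups drank 2.5% DSS (dextran sulfate sodium, which damages the gut lining and causes colitis) for 7 days and were then gavaged for 5 weeks. The gavage was Lactobacillus plantarum ZJ316-COM in the COM group (4 libraries), ZJ316-KO in the KO group (4 libraries), the WT ZJ316 strain in the WT group (4 libraries) and PBS in the DSS group (3 libraries). Control mice (3 libraries) received water and normal feeding, and no gavage is described for them, so DSS, gavage and their absence cannot be told apart in a comparison with Control. Nothing in the labels spells out KO or COM, or states what was altered in those bacteria, how old the mice were or which animal gave which library. P-values therefore measure the spread between these libraries, which may be technical. Every comparison between bacterial groups, and of each with DSS, is between mice that all drank DSS. In whole colon, fewer cells of a type and less RNA per cell cannot be told apart.

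Several libraries stood apart in markers of gut position and of other tissues. Hoxb13, a homeobox gene of the most distal gut, was at 79.3 FPKM in KO 2 and 0.76 FPKM in Control 3, against at least 173 FPKM in the other 16 libraries. The mean log2(FPKM + 1) of 10 distal Hox genes was 2.13 in KO 2, 2.45 in DSS 3 and 1.36 in Control 3, and 3.06 to 3.78 elsewhere. Only part of the list was low in KO 2 and DSS 3. Hoxd13 was at 1.71 FPKM in KO 2, 6.67 in DSS 3 and 0 in Control 3, and at least 29.3 elsewhere. Hoxa13 (11.2 and 9.24 FPKM), Hoxa11 (13.6 and 10.9) and Hoxa10 (31.8 and 23.6) were not low in KO 2 and DSS 3. In Control 3 these Hoxa genes were at 2.24, 5.36 and 11.1 FPKM, their lowest values. Not all of the list was low there: Hoxd9 was at 1.67 FPKM, within its range elsewhere of 0.14 to 1.86. Hoxc10 was at 0.46 FPKM in Control 3 and at most 0.18 elsewhere. Slc10a2, the bile acid uptake transporter of the ileum, reached 26.4 FPKM in COM 1, 26.6 FPKM in COM 2 and 82.4 FPKM in Control 3, against at most 5.62 FPKM in the others. Other small intestinal markers were mixed. Sis was at 0.19, 1.79 and 4.19 FPKM in those libraries and at most 0.07 elsewhere. Fabp6, at 4.38, 11.4 and 5.14 FPKM, compared with 6.15 in Control 1 and 4.63 in Control 2. Alpi, at 5.54, 6.44 and 35.1 FPKM, reached 13.5 in KO 2. Lct, Defa24 and Defa30 were at most 0.01 FPKM in those libraries. Pancreatic acinar transcripts such as Prss2 were high in KO 3, DSS 1 and DSS 3 (595, 1978 and 312 FPKM). Markers of squamous epithelium (12 of 12 in the table) averaged 3.34 on the log2(FPKM + 1) scale in COM 3, 1.98 in KO 3, 2.88 in WT 2, 2.33 in WT 4 and 3.37 in DSS 2, and at most 0.92 elsewhere. Krt5, a keratin of such epithelium, was at 94.3 FPKM in COM 3, 13.7 in KO 3, 34.5 in WT 2, 22.3 in WT 4 and 88.1 in DSS 2, and at most 0.71 FPKM elsewhere. Fits without these sets of libraries were therefore made too. Of the pancreatic islet markers (7 of 9 in the table), Ins2 was at 0 in 16 libraries, with 0.43 FPKM in KO 3 and 2.89 FPKM in DSS 1. Others of that list differed from Ins2. Ppy was at 2.17 to 18.3 FPKM in every library. Iapp was at 0.85 FPKM in COM 1, 1.8 in COM 2 and 2.68 in Control 3, and at most 0.36 elsewhere. Slc2a2 was at 2.61 FPKM in COM 2 and at most 0.03 elsewhere. G6pc2, Mafa and Nkx6-1 were at most 0.3 FPKM. The epithelial markers (11 of 11 in the table) and the 12 enteroendocrine markers were above 0 in every library. Files held no counts, so the depth of each library is unknown.

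The stretches of DNA before the transcription starts are shown for the 5 genes that share a letter pattern and for Gcg, the gene with the narrowest range. Sequences are from RefSeq on build GRCm38.p6, written 5′ to 3′ on the strand of the gene, and 9 of 9 genes matched. A pair of letter patterns are in capitals, the cAMP response element TGACGTCA with its half-site TGACG, and the E-box CAGATG, which NEUROD1 and its partners are known to bind. Both strands of the 250 bases before each annotated start were searched, and a full element also holds the half-site. A gene with several annotated starts was counted when any of its windows held the pattern, whereas the background shares are per window. The full element stands in 2 of 9 genes, against 1.55% of 32851 windows of that length. The half-site stands in 5 of 9 genes, against 17.8% of the windows. The 5 genes that hold it are set side by side here, 30 bases each, at chr2:132781559-132781588 (plus strand) for Chgb, chr16:23890874-23890903 (minus) for Sst, chr12:102554885-102554914 (plus) for Chga, chr7:46672556-46672585 (minus) for Tph1 and chr10:102490567-102490596 (minus) for Nts.
Chgb: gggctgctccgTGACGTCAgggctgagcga
Sst: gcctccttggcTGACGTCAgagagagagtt
Chga: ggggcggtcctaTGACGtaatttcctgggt
Tph1: aaaatgtgcgtgTGACGctgcgtgtgctag
Nts: attagggaagatCGTCActttccatcaagg
In Nts the half-site lies on the other strand, as CGTCA, 166 bases before the start. In Chgb, Sst, Chga and Tph1 it begins 72, 48, 44 and 36 bases before the start. The Chgb and Sst stretches each overlap 1 GENCODE M21 exon, whose gene and strand were not checked, and the other 3 overlap none. The Sst stretch lies within the span of the Sst gene itself (chr16:23889573-23891342). The annotated start it precedes is thus not at the outer end of that span.

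The E-box letters stand in 3 of 9 genes (Gcg, Insl5 and Sct), against 14.4% of windows. In Insl5 they stand in window 2 only, before another annotated start than that of window 1. Gcg holds a pair of them in the 250 bases at chr2:62483654-62483903 (minus strand), beginning 139 and 83 bases before the start. This window lies before the proglucagon gene, whose level spanned the narrowest range of the 9.
Gcg: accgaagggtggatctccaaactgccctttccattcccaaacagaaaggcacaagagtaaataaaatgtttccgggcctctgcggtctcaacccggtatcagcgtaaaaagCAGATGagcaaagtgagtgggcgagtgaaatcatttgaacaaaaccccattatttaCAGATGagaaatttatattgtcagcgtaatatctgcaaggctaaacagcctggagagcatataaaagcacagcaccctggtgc
The Chga window, at chr12:102554691-102554940 (plus strand), carries the single half-site and no CAGATG, the only form of the E-box searched.
Chga: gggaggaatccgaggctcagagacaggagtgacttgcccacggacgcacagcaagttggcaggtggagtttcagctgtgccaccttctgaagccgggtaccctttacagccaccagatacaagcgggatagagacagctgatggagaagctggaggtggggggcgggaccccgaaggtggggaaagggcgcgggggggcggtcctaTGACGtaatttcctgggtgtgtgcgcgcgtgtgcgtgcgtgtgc
A match is a description of letters and was not tested as a binding site. The pattern TTTATNG, which CDX factors of the gut are known to bind, stands in 1 of 9 genes (Sct), against 9.81% of windows. In Sct it lies on the other strand, as CTATAAA, beginning 29 bases before the annotated start.

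Pyy was the most abundant of the 9 in every library. By the median over 18 libraries, which is already per transcript length, Pyy had 257 FPKM, Insl5 46.3, Chgb 38.1, Gcg 33.7, Chga 28.1, Sst 22.9, Tph1 6.36, Sct 3.84 and Nts 0.605 FPKM. Pyy exceeded Insl5 and Sst exceeded Tph1 in 18 of 18 libraries. In between, neighbours changed places: Insl5 exceeded Chgb in 14, Chgb exceeded Gcg in 12, Gcg exceeded Chga in 12 and Chga exceeded Sst in 11 of 18 libraries. Tph1 exceeded Sct in 15 and Sct exceeded Nts in 16. The summed level of the 9 genes was 348 to 499 FPKM. Control 3 lay inside that range with 440.3 FPKM, although its make-up was unlike that of any other library. Pyy made up 45.4% of the sum in COM 2, 43.2% in KO 2 and 17.3% in Control 3, and 50.2% to 63.4% in the other 15. Sst made up 3.39% to 13.96% of the sum in 17 libraries and 34.0% in Control 3.

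**Figure D1:**
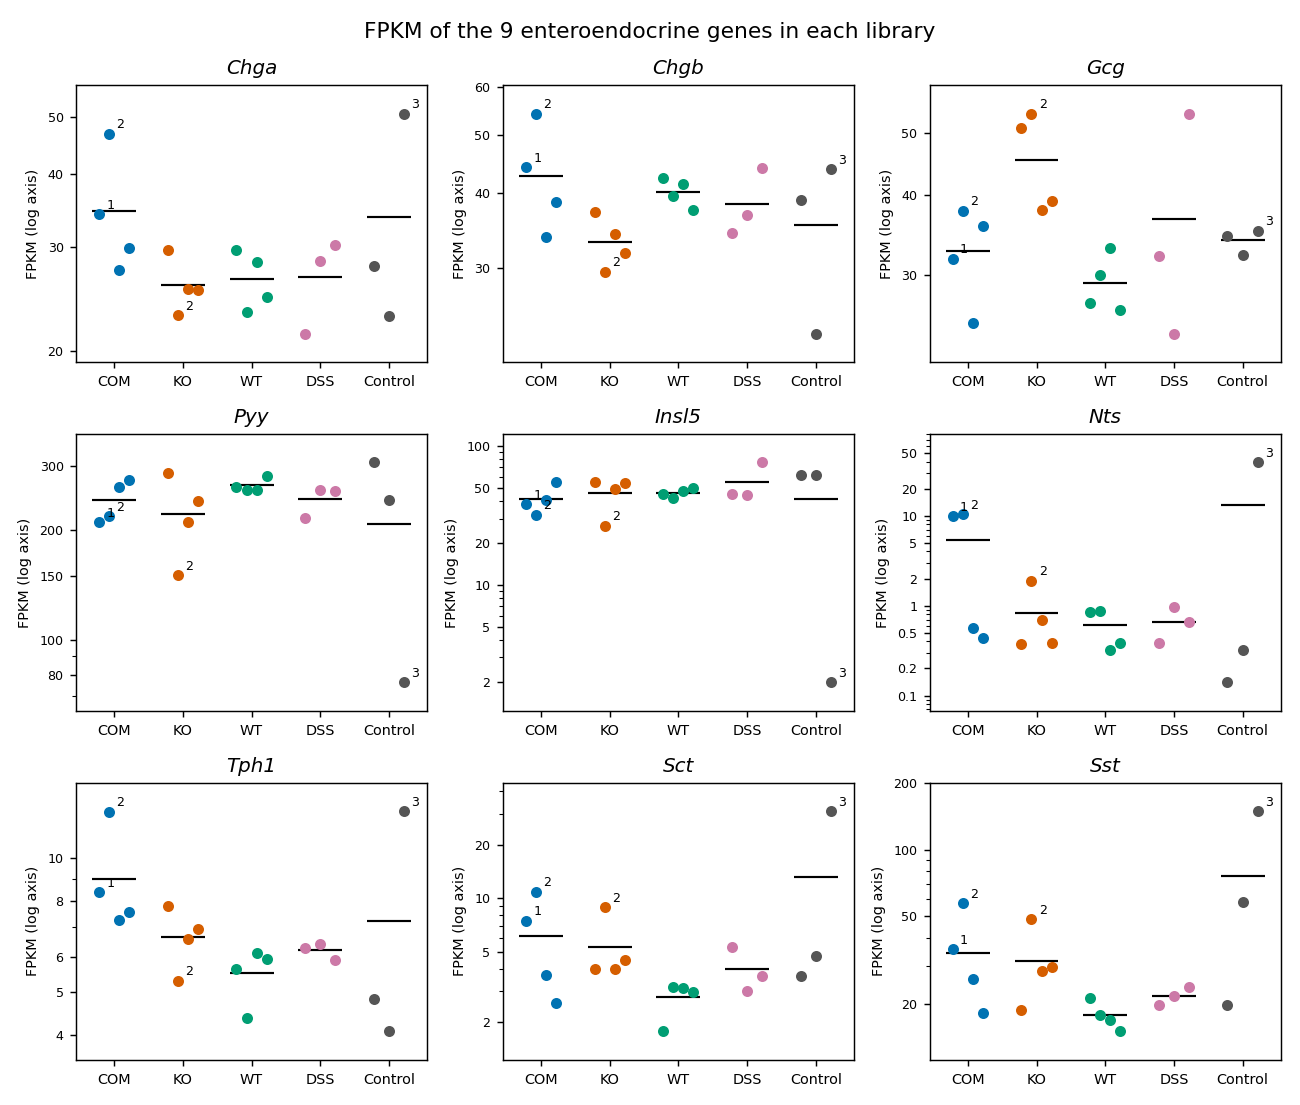
Each panel plots the FPKM of 1 gene (vertical log axis) in every library, with groups along the horizontal axis and the group mean as a bar; small digits mark COM 1, COM 2, KO 2 and Control 3. Control 3 is the lowest point for Pyy and Insl5 and the highest for Chga, Tph1, Sct, Sst and Nts.

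Chga (NCBI gene 12652, chr12:102554941-102565027) and Chgb (12653, chr2:132781642-132795079) encode chromogranin A and secretogranin-1, which pack hormone granules. Chga was at 34.1, 46.8, 27.4 and 29.9 FPKM in COM, 29.8, 23.1, 25.5 and 25.4 in KO, 29.7, 23.4, 28.3 and 24.7 in WT, 21.4, 28.4 and 30.3 in DSS and 27.9, 22.9 and 50.6 in Control. Only COM 2 and Control 3 exceeded 40 FPKM, and all groups overlapped. Chgb was at 44.2, 54.3, 33.9 and 38.7 FPKM in COM, 37.2, 29.6, 34.2 and 31.7 in KO, 42.4, 39.5, 41.5 and 37.5 in WT, 34.4, 36.8 and 44 in DSS and 39, 23.3 and 43.8 in Control. The highest library was COM 2 and the lowest Control 2. Every KO library lay below every WT library (log2 fold change -0.27 ± 0.17 SE), which did not pass the test with limma and Benjamini-Hochberg adjustment (adjusted p = 0.372).

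Gcg (14526, chr2:62474530-62483653) encodes proglucagon, which L cells cut into glucagon-like peptides. It was at 31.7, 37.8, 25.2 and 35.7 FPKM in COM, 50.8, 53.5, 37.8 and 39.1 in KO, 27.1, 29.9, 33 and 26.4 in WT, 32.1, 24.3 and 53.5 in DSS and 34.5, 32.2 and 35.1 in Control. Every KO library was above every WT and Control library. The lowest KO library, at 37.78 FPKM, and the highest COM library, at 37.77 FPKM, differed by the last printed decimal, and DSS 3 lay within the KO range. Control 3 did not stand apart in Gcg. Pyy (217212, chr11:102106676-102107832) encodes peptide YY, the hormone that slows gut transit and appetite. It was at 211, 218, 263 and 276 FPKM in COM, 288, 150.1, 210.4 and 241 in KO, 264, 258, 258 and 283 in WT, 216, 259 and 256 in DSS and 308, 242 and 76.2 in Control. The 2 lowest libraries, Control 3 and KO 2, were the 2 lowest in the mean of the distal Hox genes, and all groups overlapped. Gcg per 100 Pyy was 35.7 in KO 2 and 46.1 in Control 3, against 9.33 to 20.9 elsewhere.

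Insl5 (23919, chr4:103017872-103027271) encodes insulin-like peptide 5 of colonic L cells, the ligand of the receptor RXFP4. It was at 38, 32, 41 and 55.3 FPKM in COM, 54.8, 26.7, 49 and 54 in KO, 44.8, 41.9, 47.7 and 50 in WT, 44.8, 44.6 and 76.2 in DSS and 61.6, 61.7 and 1.98 in Control. Control 3 was the lowest library and KO 2 the next. The other Control libraries were higher than any COM, KO or WT library, and DSS 3 was the highest. Nts (67405, chr10:102481756-102490418) encodes neurotensin of N cells. It was at 9.92, 10.3, 0.56 and 0.44 FPKM in COM, 0.37, 1.89, 0.7 and 0.38 in KO, 0.86, 0.88, 0.32 and 0.38 in WT, 0.38, 0.96 and 0.65 in DSS and 0.14, 0.32 and 39.2 in Control. Nts was thus under 1 FPKM in 14 libraries. The 3 highest, Control 3, COM 2 and COM 1, were also the 3 with Slc10a2 above 20 FPKM, and KO 2 came next. The 9 small intestinal markers, which include Slc10a2, summed to 7.02 to 212 FPKM in COM, 7.7 to 15.3 in KO, 5.57 to 8.6 in WT, 4.44 to 17.7 in DSS and 8.74 to 127 in Control. Apoa1 alone gave 164.6 of the 212 FPKM, in COM 2, and 11.7 of the 17.7 FPKM, in DSS 1. In COM against Control the log2 fold change of Nts was 0.06 ± 0.998 SE with all libraries, 1.735 ± 0.695 without Control 3 and 0.29 ± 0.31 without those 3 libraries, a set chosen after seeing the data (adjusted p by limma 0.983, 0.15 and 0.651).

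Tph1 (21990, chr7:46644641-46672537) encodes tryptophan hydroxylase 1, the rate-limiting enzyme of serotonin synthesis in enterochromaffin cells, which mouse mast cells also express. It was at 8.38, 12.7, 7.28 and 7.57 FPKM in COM, 7.81, 5.3, 6.59 and 6.93 in KO, 5.62, 4.37, 6.11 and 5.93 in WT, 6.29, 6.42 and 5.9 in DSS and 4.82, 4.08 and 12.8 in Control. Every COM library was above every WT and DSS library, and Control held the lowest value, in Control 2, and the highest, in Control 3. Sct (20287, chr7:141278329-141279174) encodes secretin. It was at 7.46, 10.9, 3.7 and 2.56 FPKM in COM, 3.98, 8.93, 3.99 and 4.47 in KO, 1.78, 3.18, 3.11 and 2.97 in WT, 5.34, 2.99 and 3.63 in DSS and 3.65, 4.72 and 30.9 in Control. Control 3, COM 2, KO 2 and COM 1 were the 4 highest, and every WT library was below every KO and every Control library.

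Sst (20604, chr16:23889573-23891342) encodes somatostatin, the inhibitory hormone of D cells, which some enteric neurons make as well. It was at 35.6, 57.5, 25.9 and 18.3 FPKM in COM, 18.9, 48.5, 28.3 and 29.6 in KO, 21.5, 18, 17 and 15.1 in WT, 19.8, 21.9 and 23.9 in DSS and 19.9, 58.2 and 149.8 in Control. Control 3 was the highest, followed by Control 2, COM 2 and KO 2. Control 1 lay among the DSS and WT libraries, so all groups overlapped. The fold from the lowest to the highest library was 9.91 for Sst, 17.4 for Sct, 38.5 for Insl5 and 280 for Nts, against 2.21 for Gcg, 2.33 for Chgb, 2.36 for Chga, 3.13 for Tph1 and 4.04 for Pyy.

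**Figure D2:**
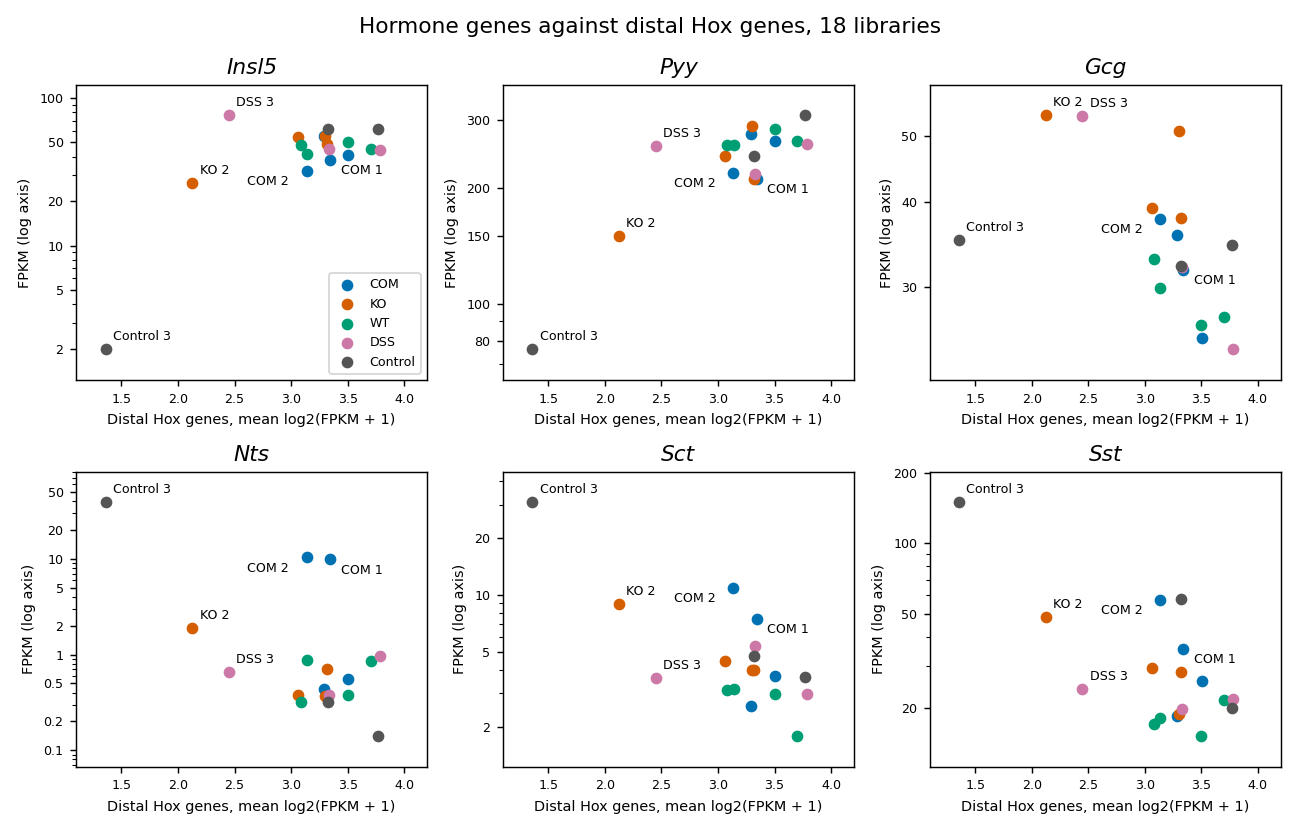
Each panel plots the FPKM of 1 gene (vertical log axis) against the mean log2(FPKM + 1) of 10 distal Hox genes (horizontal axis), with 1 point per library. Control 3, the lowest in Hox genes at 1.36, is at the low end for Insl5 and Pyy and at the high end for Nts, Sct and Sst, while Gcg there is 35.1 FPKM.

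Against Control, 1 of the 9 genes passed the test in 1 of 4 comparisons: Sst fell in the WT group. All fits were limma models of log2(FPKM + 1), on which scale the change of low genes is understated, with Benjamini-Hochberg adjustment over 13263 genes and a threshold of 0.05. Sst averaged 17.9 ± 2.67 FPKM in WT and 76.0 ± 66.7 FPKM in Control (SD, n = 4 and 3), a log2 fold change of -1.61 ± 0.49 SE (adjusted p = 0.0295 by limma). That is 1 of 9 called, against 23.1% of all genes in this comparison, and 8.35% of all genes were called lower. WT 1 was above Control 1, and the other WT libraries were below all Control libraries. Without Control 3 the value was -0.91 with adjusted p = 0.168, so the call rests on that library. It was also lost by leaving out Control 2 (adjusted p = 0.0687), WT 2 (0.0585), WT 3 (0.061) or WT 4 (0.0589), in a fit of the 2 groups alone (0.129), without the 5 libraries high in squamous markers (0.22) and without the 3 high in acinar transcripts (0.0617). With the distal Hox mean as a covariate, chosen after seeing the data, it was -1.17 with adjusted p = 0.0282. The enteric neuron markers (10 of 10 in the table, none at 0) averaged 1.72 to 1.91 on the log2(FPKM + 1) scale in WT and 2.08 to 2.61 in Control, and their part in the Sst result was not tested.

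In the COM, KO and DSS groups, 0 of the 9 genes passed against Control with limma, where 7.6%, 5.14% and 16.9% of all genes did. At an unadjusted p under 0.05 there were 0 genes in COM, 0 in KO, 2 in WT and 1 in DSS. These were Sst in DSS (log2 fold change -1.33 ± 0.53 SE, adjusted p = 0.0945) and, beside the called Sst, Sct in WT (-1.35 ± 0.54, adjusted p = 0.0811). Sst was -0.81 ± 0.49 in COM and -0.90 ± 0.49 in KO (adjusted p = 0.328 and 0.317). Sct was at 2.76 ± 0.659 FPKM in WT and 13.1 ± 15.4 FPKM in Control (SD, n = 4 and 3). All WT libraries were below all Control libraries in Sct, 1 of 9 genes to lie so, against 10.5% of all genes. Without Control 3 the Sct value was -0.48 with adjusted p = 0.461. Beside them, the median log2 fold change of the 9 genes was 0.08 in COM, -0.05 in KO, -0.22 in WT and -0.04 in DSS, against 0.03, 0.03, 0.05 and 0.05 over all genes tested. Gcg in KO was above all Control libraries (0.39 ± 0.20 SE, adjusted p = 0.288), 1 of 9 genes, against 8.07% of all genes.

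Leaving out Control 3 turned the fold changes of several members against Control and brought a further call. Tph1 in COM was 0.40 ± 0.26 SE with all libraries (adjusted p = 0.369) and 0.85 ± 0.18 without Control 3 (adjusted p = 0.0154 by limma), a call absent with all libraries. The 2 remaining Control libraries, at 4.82 and 4.08 FPKM, were below all 4 COM libraries, which had 7.28 to 12.7 FPKM. Without Control 3, Tph1 was 0.48 ± 0.18 in KO (adjusted p = 0.13), 0.25 ± 0.18 in WT (0.376) and 0.41 ± 0.19 in DSS (0.178). Mast cell markers (10 of 10 in the table, up to 5 of them at 0 in a library) averaged 1.15 to 1.44 on the log2(FPKM + 1) scale in COM, 1.29 to 1.57 in KO, 1.51 to 1.67 in WT, 1.32 to 1.39 in DSS and 0.60 to 0.96 in Control, and their part in the Tph1 values was not tested. Insl5 in COM was 0.88 ± 0.73 with all libraries and -0.59 ± 0.27 without Control 3 (adjusted p = 0.491 and 0.21). The sign also turned in KO (1.0 and -0.47), WT (1.05 and -0.42) and DSS (1.26 and -0.20), and none of these passed. Pyy turned likewise: with all libraries it was 0.43 in COM, 0.28 in KO, 0.57 in WT and 0.44 in DSS, and without Control 3 it was -0.18, -0.33, -0.04 and -0.17. The 2 other exclusions brought calls in COM against Control: without KO 2, DSS 3 and Control 3, Insl5 fell (-0.59, adjusted p = 0.0337) and Tph1 rose (0.85, 0.0142), and without COM 1, COM 2 and Control 3, Tph1 rose (0.63, 0.0385), as it did in KO (0.48, 0.0479). Control 1, whose Sst level was the lowest of the Control group, was left out instead. This gave calls for Sst in COM (-1.54, adjusted p = 0.0224), KO (-1.63, 0.0247), WT (-2.33, 0.00119) and DSS (-2.05, 0.00498). In WT it also gave calls for Pyy (0.96, 0.0329) and Sct (-1.86, 0.0202). Without Control 1, the calls among all 13263 genes were 2302 in COM, 1591 in KO, 4624 in WT and 3662 in DSS. With all libraries they were 1008, 682, 3058 and 2243. Leaving out Control 1 thus raised the calls among genes in general, and the added calls were not particular to the hormone genes.

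**Figure D3:**
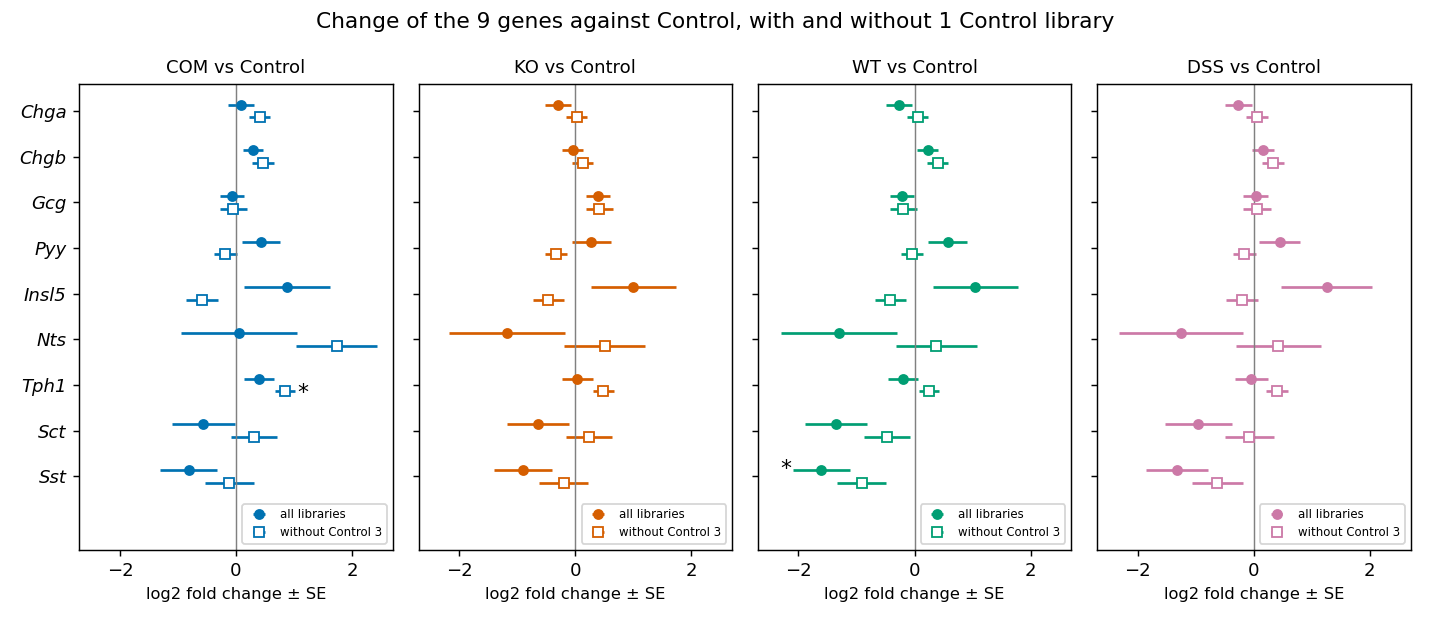
Log2 fold changes of log2(FPKM + 1) against Control (horizontal axis, bars are SE) for the 9 genes in COM, KO, WT and DSS, with all libraries (filled circles) and without Control 3 (open squares); asterisks mark adjusted p under 0.05. Sst in WT is called with all libraries and Tph1 in COM only without Control 3, and Insl5 and Pyy lie right of 0 with all libraries and left of 0 without it.

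Among the mice that drank DSS, none of the 9 genes passed the test in any of 6 comparisons. Set against the PBS-gavaged DSS group, 0 of 9 genes passed in COM, KO and WT with limma, where 0.0151%, 0.166% and 0% of all genes did, and 0 of 9 had an unadjusted p under 0.05 in each. Tph1 in COM was above all DSS libraries (8.99 ± 2.54 and 6.20 ± 0.271 FPKM, SD, n = 4 and 3), with a log2 fold change of 0.44 ± 0.26 SE and adjusted p = 0.545. It was 1 of 9 genes to lie so, against 6.67% of all genes. For Pyy, the 95% interval of the log2 difference from DSS was -0.72 to 0.69 in COM, -0.87 to 0.54 in KO and -0.58 to 0.83 in WT. For Chga the intervals were -0.12 to 0.81 in COM, -0.50 to 0.43 in KO and -0.47 to 0.47 in WT. For Nts the interval in COM spanned -0.81 to 3.43, so a change of that gene was not resolved.

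Between the bacterial groups the clearest differences were in Gcg and Tph1, and neither passed. Gcg averaged 45.3 ± 8.02 FPKM in KO and 29.1 ± 2.99 FPKM in WT (SD, n = 4 each), a log2 fold change of 0.61 ± 0.19 SE with adjusted p = 0.102 by limma. The lowest KO library, at 37.8 FPKM, exceeded the highest WT library, at 33.0 FPKM. Fitted on these 2 groups alone the same fold change passed (adjusted p = 0.0434). In COM against KO, Gcg was -0.46 ± 0.19 (32.6 ± 5.52 and 45.3 ± 8.02 FPKM, adjusted p = 0.396), with groups that meet at 37.77 and 37.78 FPKM, and in COM against WT it was 0.15 ± 0.19 with a 95% interval of -0.25 to 0.55. Tph1 averaged 8.99 ± 2.54 FPKM in COM and 5.51 ± 0.785 FPKM in WT (SD, n = 4 each), a log2 fold change of 0.60 ± 0.24 SE with adjusted p = 0.398. Without COM 1, COM 2 and Control 3 it was 0.38 with adjusted p = 0.373. The counts called were 0 of 9 in KO against WT, COM against KO and COM against WT, where 0.829%, 0.0302% and 0.00754% of all genes passed. An unadjusted p under 0.05 was reached by 1 gene in each, Gcg in the first 2 and Tph1 in the last.

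In KO against WT, 2 of 9 genes lay above without overlap, Gcg and Sct, against 7.83% of all genes, and 1 lay below, Chgb, against 9.4%. Sct was at 5.34 ± 2.40 FPKM in KO and 2.76 ± 0.659 FPKM in WT (SD, n = 4 each), with a log2 fold change of 0.71 ± 0.50 SE and adjusted p = 0.448. Without KO 2, its highest library, the Sct value was 0.47 ± 0.53 with adjusted p = 0.715, and the Gcg value 0.53 ± 0.20 with adjusted p = 0.252. In COM against KO, 1 gene lay below without overlap, Gcg by that last decimal, against 3.34%, and in COM against WT 1 lay above, Tph1, against 4.69%. The median log2 fold change of the 9 genes was 0.15 in COM against KO, 0.35 in COM against WT and 0.14 in KO against WT, and over all tested genes it was 0.01, -0.01 and -0.02.

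Across the 18 libraries the 9 genes fell into patterns that were weaker without Control 3. The Pearson correlation of log2(FPKM + 1) between Pyy and Insl5 was 0.93 (0.69 without Control 3), that between Sct and Sst 0.89 (0.77), and that between Nts and Sct 0.87 (0.71). Pyy ran against Sct (-0.90, and -0.72 without Control 3) and Sst (-0.85, and -0.65). Gcg reached at most 0.28 with any other of the 9, with Sct, and 0.42 without Control 3. The libraries share the FPKM scale and differ in gut position markers, and these values are a description.

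**Figure D4:**
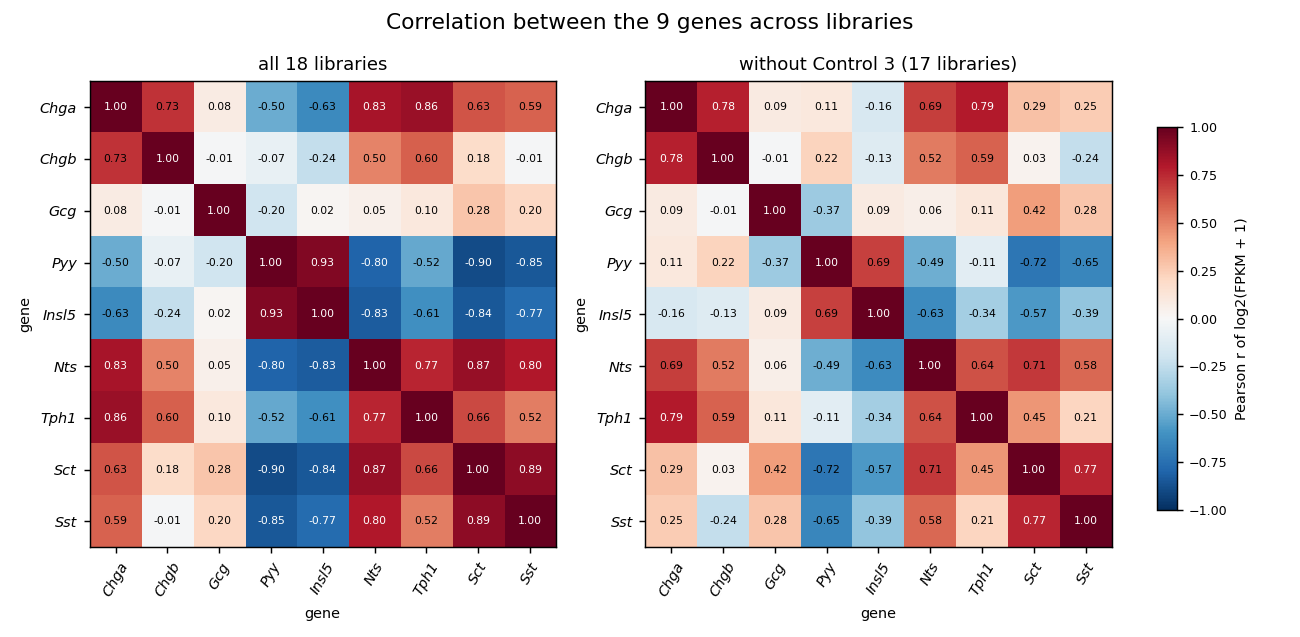
Pearson correlation of log2(FPKM + 1) between each pair of the 9 genes (both axes), as colour and number, over all 18 libraries on the left and without Control 3 on the right. Pyy and Insl5 form 1 block and Nts, Sct and Sst another, and the values shrink without Control 3, while Chga with Chgb is 0.73 and 0.78.

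Chga, the general granule marker, was set against the 8 other genes over 18 libraries with permutation tests, adjusted over the 8 relations. Chgb gave r = 0.726 and rho = 0.771 (permutation adjusted p = 0.00195 and 0.00248), and r = 0.682 without the 2 libraries farthest from the Chga median, Control 3 and COM 2. Tph1 gave r = 0.860 and rho = 0.664 (permutation adjusted p = 0.0004 and 0.014), and r = 0.583 without those 2. All 8 relations kept their sign after centring on the group means, with r = 0.86 for Chgb, 0.898 for Tph1, 0.781 for Nts, 0.627 for Sct, 0.574 for Sst, 0.298 for Gcg, -0.653 for Insl5 and -0.548 for Pyy. Centring leaves COM 2 and Control 3 in place. Nts (r = 0.827, rho = 0.442, permutation adjusted p = 0.00195 and 0.175) dropped to 0.407. Sct (r = 0.628, rho = 0.036, 0.022 and 0.928) and Sst (r = 0.586, rho = 0.199, 0.022 and 0.704) turned to -0.244 and -0.201. Insl5 (r = -0.633, rho = -0.174, permutation adjusted p = 0.022 and 0.704) turned to 0.211, and Pyy (r = -0.496, rho = 0.024, 0.0641 and 0.928) to 0.358, so these relations rest on Control 3 and COM 2. Gcg gave r = 0.079 and rho = 0.158 (permutation adjusted p = 0.763 and 0.704), and 0.028 without them.

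The genes whose pattern was most like the mean of the 9 (mean z score, Pearson r over 18 libraries) were Cat (0.918), which encodes catalase, Cd164 (0.897), Atoh1 (0.890), the transcription factor of the secretory lineage, Cyp3a25 (0.877), Fgfrl1 (0.863), Ces1g (0.861), Acaa1b (0.860) and Cyp2d26 (0.849). Cat had 63.4 FPKM in COM 2 and 55.3 FPKM in Control 3, and 26.8 to 36.2 FPKM elsewhere. Ces1g had 26.3, 29.05 and 87.1 FPKM in COM 1, COM 2 and Control 3, and at most 7.15 FPKM elsewhere. As Pyy and Insl5 ran against Sct and Sst, the mean is not a pattern that all 9 share. For single members, Pyy was most like Tmprss2 (0.970) and Acsm3 (0.967), Insl5 like St3gal6 (0.975) and Thbs4 (0.974), and Nts like Hoxb6 (0.981) and Slc51a (0.977), a subunit of the bile acid exporter. Slc51a had 42.3 and 34.4 FPKM in COM 1 and COM 2, 1.1 in KO 2 and 109 FPKM in Control 3, and at most 0.24 FPKM in the other 14. Sct was most like Prpsap1 and Lpin2 (0.959 each), Sst like Kcnip1 (0.939) and Gfra1 (0.938), and Tph1 like Slc39a14 (0.892) and Cat (0.887). Chga was most like Cat (0.919) and Insrr (0.891), Chgb like Zdhhc9 (0.873) and Erap1 (0.865), and Gcg like Slc50a1 (0.817) and Crisp3 (0.814).

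The genes that process, store and release the hormones fell in part against Control, with the most calls in WT and DSS. Of 25 listed granule, prohormone processing and amine genes, 22 were tested. With limma, 1 fell in COM, 0 in KO, 10 in WT and 6 in DSS, where 2.34%, 1.46%, 8.35% and 5.31% of all genes fell. Another 1 was higher in WT, where 14.7% of all genes rose. An unadjusted p under 0.05 was reached by 11 in COM, 8 in KO, 15 in WT and 11 in DSS, against 24.5%, 21.1%, 37.2% and 32.9% of all genes. The median log2 fold change of the 22 was -0.28 in COM, -0.27 in KO, -0.47 in WT and -0.39 in DSS, against 0.03, 0.03, 0.05 and 0.05 over all genes tested. Cpe, the carboxypeptidase that trims prohormones, was at 44.7, 50.7, 43.5 and 38.5 FPKM in COM, 44.6, 54.6, 51.4 and 42.1 in KO, 38.1, 35.9, 36.7 and 36.1 in WT, 41.4, 40.8 and 38.9 in DSS and 48.6, 66.6 and 68.3 in Control. All WT and DSS libraries were below all Control libraries. Its log2 fold change was -0.71 ± 0.11 SE in WT (adjusted p = 0.00102 by limma), -0.57 ± 0.12 in DSS (0.00647) and -0.45 ± 0.11 in COM (0.0276), and -0.62, -0.49 and -0.36 without Control 3, where only the COM call was lost (0.0957). The COM call was also lost without Control 2, COM 3 or COM 4. Snap25, the membrane fusion protein of secretory vesicles, was at 9.37, 9.63, 9.42 and 7.69 FPKM in COM, 7.91, 10.9, 10.5 and 7.95 in KO, 6.7, 7.86, 5.82 and 6.25 in WT, 6.87, 7.65 and 5.26 in DSS and 8.66, 13.3 and 14.1 in Control. It fell by 0.75 in WT and 0.76 in DSS on the log2 scale (adjusted p = 0.00479 and 0.00861 by limma), with all WT and DSS libraries below all Control libraries, and both calls held with each library left out in turn. Pcsk1, the convertase that cuts proglucagon, was at 3.5, 5.27, 2.18 and 1.87 FPKM in COM, 2.72, 3.73, 2.18 and 2.35 in KO, 1.91, 2.12, 2.26 and 1.61 in WT, 2.3, 2.32 and 2.73 in DSS and 2.13, 3.18 and 8.22 in Control, highest in Control 3 and COM 2, and did not pass.

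The other granule genes with the smallest p in WT were Resp18 (-0.72, adjusted p = 0.00544), Scg2 (-0.69, 0.00648), Rab3c (-0.54, 0.00651) and Pcsk1n (-0.69, 0.00672), and all 4 kept their call without Control 3 with limma (0.0297, 0.0348, 0.0383 and 0.0236). The remaining 4 that fell in WT, Pcsk2, Scg3, Syp and Ptprn, lost their call without Control 3 (0.136, 0.0553, 0.145 and 0.0521), and Pcsk2 and Syp also without WT 3, WT 4 or Control 2. In DSS, Ptprn (-0.76, adjusted p = 0.0173), Scg2 (-0.61, 0.0219), Scg3 (-0.68, 0.0239) and Rab3c (-0.41, 0.0424) fell, and all 4 lost their call without Control 3 (0.0734, 0.0845, 0.104 and 0.168). Ptprn, Scg2, Scg3 and Rab3c also lost it without DSS 3, the last 3 of them without DSS 1 or Control 2, Scg3 without DSS 2, and Rab3c without COM 1, COM 3, KO 4, WT 3 or WT 4. The gene higher in WT was Slc18a1, the amine transporter of enterochromaffin granules, with 0.38 ± 0.11 SE (adjusted p = 0.0262, and 0.2 after quantile normalization), named after its value was seen. Its call was lost without WT 1, WT 4, Control 1 or Control 2. Without Control 3 the counts lower were 0 in COM, 0 in KO, 6 in WT and 2 in DSS, and the counts higher 1, 1, 2 and 1. The calls over all 13263 genes, in either direction, also moved with the library left out. With any 1 library left out they were 402 to 2302 in COM, 254 to 1591 in KO, 1873 to 4624 in WT and 1266 to 3662 in DSS. In fits of the 2 groups alone 4 passed downward in WT (Cpe, Resp18, Ptprn and Snap25) and 0 in DSS, where 0 of all genes passed. Over all 5 lists described here, such fits ended 28 of 33 calls. Enteric neurons also express Snap25, Cpe and the secretogranins, and the neuron markers averaged 1.86 to 2.08 on the log2(FPKM + 1) scale in COM, 1.92 to 2.33 in KO, 1.72 to 1.91 in WT, 1.79 to 2.15 in DSS and 2.08 to 2.61 in Control. The smooth muscle markers (7 of 7 in the table) averaged 7.684 to 8.039 in WT, 7.752 to 8.09 in DSS and 8.297 to 8.457 in Control. In COM they averaged 7.714 to 8.27 and in KO 8 to 8.298, on the same scale. The part of neurons or muscle in these values was not tested.

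**Figure D5:**
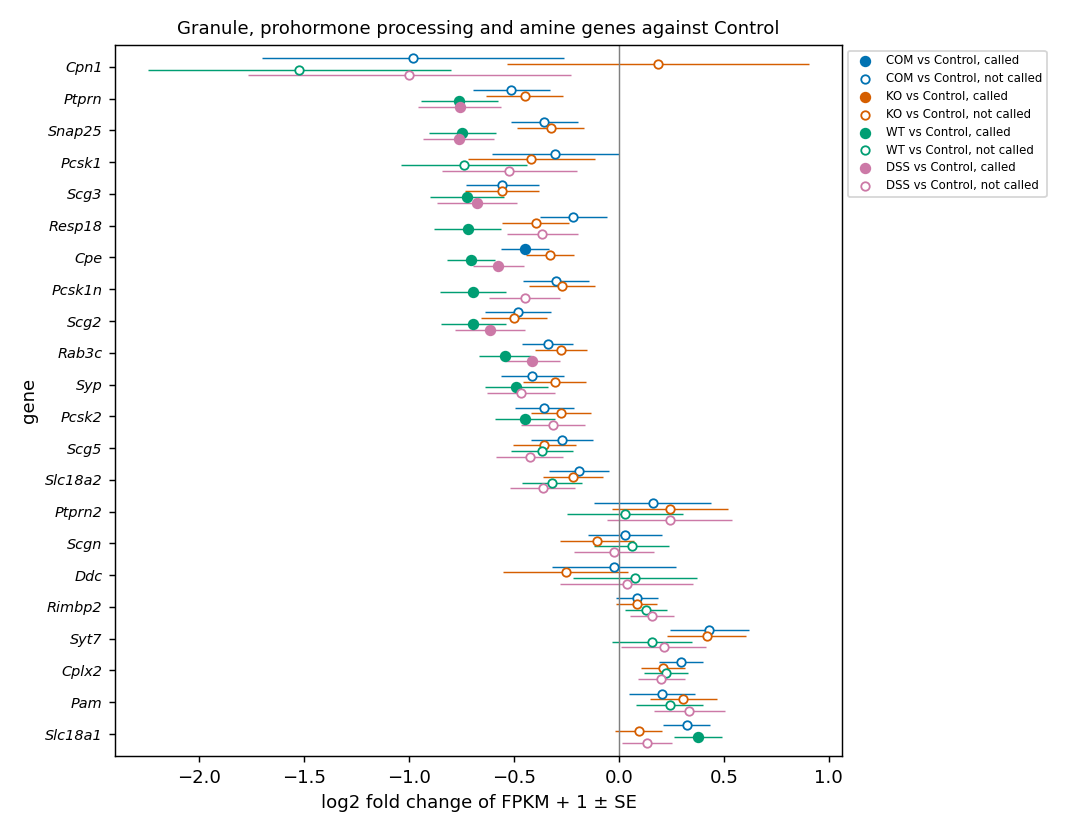
Log2 fold changes of FPKM + 1 against Control (horizontal axis, bars are SE) for the 22 tested granule, prohormone processing and amine genes (rows), in COM, KO, WT and DSS; filled points passed at adjusted p under 0.05. WT has 10 filled points left of 0 and 1 right of it, DSS has 6 on the left, COM has 1 and KO has none.

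Among genes that receive or remove the hormones, Maoa fell in all 4 groups against Control. Maoa, the mitochondrial enzyme that breaks down serotonin, was at 144, 148, 133 and 129.7 FPKM in COM, 118, 136, 135 and 137 in KO, 106, 118, 117 and 123 in WT, 109, 109 and 125 in DSS and 158, 174 and 272 in Control. Every library of the 4 groups was below every Control library, of which Control 3 was the highest. Its level fell by 0.49 ± 0.135 SE in COM, 0.57 ± 0.135 in KO, 0.75 ± 0.135 in WT and 0.77 ± 0.144 in DSS on the log2 scale (adjusted p = 0.037, 0.0261, 0.00192 and 0.00356 by limma). Without Control 3 it was -0.26, -0.33, -0.51 and -0.54, and passed in all but COM (adjusted p = 0.0841, 0.0357, 0.00262 and 0.00376). In COM the call was also lost after quantile normalization (0.0735) and without any 1 COM library, and in KO without KO 1. Fits of the 2 groups alone ended all 4 calls (0.252 in COM, 0.277 in KO, 0.0529 in WT and 0.135 in DSS). These 4 comparisons share the Control libraries. Of 29 listed receptor and removal genes 14 were tested, and 1 fell in COM, 1 in KO, 3 in WT and 1 in DSS, while 1 rose in WT and 1 in DSS. All genes called in either direction were 7.6% in COM, 5.14% in KO, 23.1% in WT and 16.9% in DSS, so the counts of 1, 1, 4 and 2 of 14 lie near that background. The one that rose was Glp2r, the receptor of glucagon-like peptide 2, by 0.38 in WT and 0.49 in DSS (adjusted p = 0.018 and 0.00916). Its call was lost after quantile normalization (0.0828 and 0.0825) and, in WT, without Control 3 (0.102) or WT 1. The others that fell in WT were Npy4r, a receptor of the peptide YY family, by 0.485 ± 0.123 SE (adjusted p = 0.0121) and Htr2b, a serotonin receptor, by 0.87 ± 0.24 (0.0188). Htr2b lost its call without Control 3 (0.107) or Control 2. Rxfp4, the receptor of insulin-like peptide 5, was at 0 to 0.18 FPKM in every library. Slc6a4, the serotonin transporter, was at 1.51 FPKM in KO 2 and 0.82 FPKM in Control 3, and 4.40 to 8.67 FPKM elsewhere.

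Of 10 other gut hormone genes 7 were tested, and 1 rose, Ppy in WT, where 14.7% of all genes rose and 23.1% were called, so 1 of 7 is no more than that background. Ppy, pancreatic polypeptide, was at 13.2, 11.8, 11.5 and 8.77 FPKM in WT and 7.97, 6.97 and 2.17 in Control, with no overlap (log2 fold change 1.002 ± 0.345 SE, adjusted p = 0.0471 by limma). Without Control 3 the value was 0.53 with adjusted p = 0.262, and the call was also lost without COM 1, COM 4, KO 1, KO 3, KO 4, WT 1, WT 2, WT 3 or any DSS library. With limma 0 passed in COM, KO or DSS, with 1, 2 and 2 at an unadjusted p under 0.05. Cck, cholecystokinin of I cells, was at 2.41, 8.74, 4.5 and 1.99 FPKM in KO and 1.78, 1.98, 1.76 and 1.23 in WT, without overlap (0.86 ± 0.27, adjusted p = 0.114), and KO 2 was the highest. Without KO 2 the Cck value was 0.52 ± 0.20 with adjusted p = 0.25. Of 19 enteroendocrine transcription factors 11 were tested, and 1 rose, Isl1 in WT, and 1 of 11 is again below those shares. Isl1 was at 1.85, 2.16, 2.22 and 1.85 FPKM in WT and 1.39, 1 and 0.28 in Control, with no overlap (0.72 ± 0.20, adjusted p = 0.0166). Without Control 3 the value was 0.46 with adjusted p = 0.093. With limma 0 factors passed in COM, KO or DSS, with 1, 0 and 4 at an unadjusted p under 0.05.

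Of 16 luminal sensors 7 were tested. Slc5a1, the glucose transporter through which L and K cells sense sugar, was at 45, 43.7, 44 and 43.3 FPKM in COM, 36.9, 31.2, 36.7 and 36.9 in KO, 41.1, 41, 40.6 and 42.3 in WT, 33.5, 36.7 and 36.3 in DSS and 56.3, 43 and 39.7 in Control. All KO and DSS libraries were below all others. Slc5a1 fell by 0.37 ± 0.09 SE in KO and 0.36 ± 0.10 in DSS against Control (adjusted p = 0.031 and 0.02 by limma), and passed without Control 3 (0.0107 and 0.00862). Leaving out KO 1, KO 2 or KO 3, or in DSS leaving out DSS 1, ended the call, as did the fits of 2 groups alone (0.322 and 0.224). In COM against KO it was 0.31 ± 0.08 with adjusted p = 0.22, and in KO against WT -0.22 ± 0.08 with adjusted p = 0.167. The sensors called in either direction were 0 in COM, 1 in KO, 2 in WT and 2 in DSS, against 7.6%, 5.14%, 23.1% and 16.9% of all genes, and 11.6% of all genes rose in DSS. The 3 other calls among sensors were rises. Piezo2, the mechanical channel of enterochromaffin cells, rose by 0.38 ± 0.11 in DSS (adjusted p = 0.0257), and in WT Olfr558 rose by 0.40 ± 0.11 (0.022) and Gpr35 by 0.28 ± 0.09 (0.0349). All 3 lost their call without Control 3 (0.113, 0.0554 and 0.0635) and after quantile normalization (0.327, 0.252 and 0.126). Piezo2 also lost it without DSS 2 or DSS 3, Olfr558 without WT 2 or Control 1, and Gpr35 without WT 1, WT 2, WT 3 or Control 1. Among the 61 tested genes of these 5 lists, 0 passed in any comparison that left out Control, where 0% to 0.829% of all genes did. The counts at an unadjusted p under 0.05 were 3 in COM, 6 in KO and 4 in WT against DSS, 17 in KO against WT, 3 in COM against KO and 8 in COM against WT. Over all genes those shares were 11%, 16.3%, 4.77%, 20.1%, 10.8% and 11.2%.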

How the data were processed

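The whole-colon RNA of 18 libraries was sequenced on a DNBSEQ platform, per the labels' protocols, and the authors deposited 1 table of FPKM values per gene, with 2 decimals. The reads were mapped to mm10, per the submitters' processing notes; aligner, estimator and annotation: not given in the sources used here. Gene symbols were looked up by NCBI gene identifier (18230 of 18349 matched). Totals were 517933 to 558590 FPKM per library, and 16446 to 16859 genes were above 0. Counts cannot be recovered, so no interval for counting error is given. FPKM is relative within a library: a gene's value falls when others take more of the reads.

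The 13263 genes that reached 1 FPKM in 3 or more libraries were fitted as log2(FPKM + 1) in limma 3.58.1 (R 4.3.3), with 5 groups over 18 libraries in 1 model, a trend in the prior variance, 10 contrasts and Benjamini-Hochberg adjustment within each. Correlations with Chga used 100000 permutations (two-sided, scipy 1.17.1). The named members are all 9. From each list, called genes were named in order of p, up to 6 in a comparison. Where no gene of a list was called, those with the smallest p could be named, as Cck was in KO against WT. Pcsk1, Rxfp4, Slc6a4, Slc18a1 and, in WT, Pcsk2, Scg3, Syp and Ptprn fall outside that rule and were chosen after their values were seen. The members and lists were chosen with earlier results of these data known. Alternatives were a pseudocount of 0.1, no filter, a filter of 5 FPKM, quantile and TPM scaling, fits of 2 groups, a replicate block, and fits without single or several libraries. The fitting code was tested on simulated data.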

Additional observations from a re-analysis of the deposited data

Results flagged for a closer look

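Among the 27 combinations of a hormone gene with a group of 4 libraries, 2 held a library far from the other 3, and chance alone gives about 1 in 20. Sct, secretin, was at 8.93 FPKM in KO 2, where the next KO library had 4.47 FPKM and the group median was 4.23 FPKM; the gap was 0.901 of the group's range. KO 2 was also the lowest of the KO libraries in the mean of the distal Hox genes, and the part of that in the Sct value was not tested. Sct was at 1.78 FPKM in WT 1, where the next WT library had 2.97 FPKM and the group median was 3.04 FPKM; the gap was 0.85 of the range.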

How the results depend on the processing

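The 10 fold changes followed through the alternatives gave 300 recomputed values, of which 278 kept their direction and their side of the threshold, 10 no longer passed, 3 newly passed and 9 turned direction. Of these fold changes only Sst in WT against Control passed with all libraries (adjusted p = 0.0295 by limma). The 10 losses were thus all of that call, out of its 30 alternatives. For the other fold changes, a kept side of the threshold means that they again did not pass. All that turned were in DSS against Control, the only comparison in which Pyy, Insl5 and Nts were among the fold changes followed. There Pyy gave -0.203 without Control 3, KO 2 and DSS 3 and -0.165 without Control 3, COM 1 and COM 2, Insl5 -0.456 and -0.203, and Nts 0.423 and 0.425. Pyy and Insl5 also turned in COM, KO and WT against Control without Control 3, as given above. With single libraries left out, in DSS against Control, Pyy spanned -0.165 to 0.835, Insl5 -0.203 to 1.994 and Nts -2.145 to 0.425. The cause was not tested.

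The count of the 9 genes called in WT against Control was 1, and 0 in the fit of 2 groups, without DSS 1, DSS 3 and KO 3, without Control 3, KO 2 and DSS 3, without DSS 2, COM 3, WT 2, WT 4 and KO 3, and without Control 3, COM 1 and COM 2; it was 0 to 3 with single libraries left out. The count was 0 to 1 in COM, KO and DSS with single libraries left out. It was 2 in COM without Control 3, KO 2 and DSS 3, 1 in COM and 1 in KO without Control 3, COM 1 and COM 2, and 1 in KO against WT in the fit of 2 groups. The Pearson r of Chga with Pyy was -0.562 without DSS 1, DSS 3 and KO 3. Granule genes called lower in WT, 10 of 22, were 6 under the 5 FPKM filter, 4 in the fit of 2 groups, 3 without DSS 2, COM 3, WT 2, WT 4 and KO 3, and 6 to 14 with single libraries left out; in DSS, 6 of 22, they were 0 to 11.

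Over all genes, the calls in DSS against Control were 2243, with 0 in the fit of 2 groups (2643 at an unadjusted p under 0.05) and 3662 without Control 1. They were 3058 in WT against Control (751 to 4624 over the alternatives), 682 in KO (2 to 1591) and 1008 in COM (15 to 2302). They were 0 in WT against DSS (0 to 27), 22 in KO against DSS (0 to 333), 2 in COM against DSS (0 to 36), 110 in KO against WT (0 to 825), 4 in COM against KO (0 to 5) and 1 in COM against WT (0 to 37). Same-numbered samples of different groups correlated at -0.473 to 0.392 in 33 pairs, 13 of them above 0.1, and 3 of 18 libraries correlated best with their own number, so the numbers do not pair the samples. With the replicate block, Sst in WT was -1.50 with adjusted p = 0.0482 by limma, and the count of the 9 genes called stayed at 1. Depth is unknown, and Nts, under 1 FPKM in 14 libraries, is the gene it limits most.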
